A study of Mus musculus with 12 samples.

Results

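The genes described are 5 of the 33641 listed for mouse ventricular tissue: Nppa, Nppb, Myh7, Acta1 and Ankrd1. They were taken by symbol, as the natriuretic peptides and the best known genes of the fetal program that the stressed heart re-expresses. Earlier results of these data were known when they were chosen. All 5 were present in each of the 12 samples and all 5 passed the filter on low values that left 12526 genes for testing. Their mean level was lower in the right ventricle (RV) than in the left ventricle (LV) in both genotypes, by 3.99-fold to 5.88-fold for Nppb and 3.10-fold to 4.43-fold for Acta1. With 1 genotype taken at a time and samples unpaired, none of these ventricle differences passed the test. The smallest adjusted p by limma was 0.177, for Nppb in WT-PLN hearts. Nppb and Acta1 did pass in WT-PLN hearts with LV and RV of 1 replicate number as a fixed block. Each had an adjusted p = 0.0436 by limma, among 12 genes that passed (0.0958%). The labels do not state this pairing, and neither gene passed with the block as a random term. Both genes also passed in an average of both genotypes chosen after seeing the values, a result that single samples could undo. Lower RV values were also common elsewhere: with WT-PLN, 3151 of the 12526 genes lay wholly lower there and 122 wholly higher. Between genotypes, no change in any of the 5 passed the test. Acta1 in the LV was the only one whose samples did not overlap between R14del-PLN and WT-PLN hearts. Of all tested genes, 8.47% likewise lay wholly lower in the LV of R14del-PLN hearts.

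Natriuretic peptides are hormones that heart muscle cells secrete when they are stretched. Nppa encodes atrial natriuretic peptide and Nppb encodes brain natriuretic peptide, and both act on a receptor guanylyl cyclase in kidney, vessels and heart to lower blood volume and pressure. The fetal ventricle makes Nppa, the slow myosin heavy chain Myh7 and the skeletal actin Acta1 at high levels. In mice these are turned down after birth in favour of the fast myosin heavy chain Myh6 and the cardiac actin Actc1, and they return in hypertrophy and failure. Ankrd1 encodes a cardiac ankyrin repeat protein that is held by titin and myopalladin in the sarcomere and is also found in the nucleus. It is among the transcripts most readily induced by mechanical load.

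Messenger RNA was measured in ventricles of mice of the C57BL/6J strain, aged 12 to 14 weeks, with 3 samples for each of the groups LV WT-PLN, RV WT-PLN, LV R14del-PLN and RV R14del-PLN. Every mouse, the controls included, carried the coding sequence of human phospholamban at the mouse Pln gene, in the wild-type form in WT-PLN and with arginine 14 deleted in R14del-PLN. The study's methods describe the mutants as heterozygous, with 1 R14del and 1 WT allele, and the animals as male. They also describe breeding through chimeras of 129 origin and a Sox2-Cre line, so that the background was mixed. The labels do not state that the LV and RV samples with 1 replicate number came from the same mouse.

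Values are TPM, the number of transcripts of a gene per 1000000 transcripts after correction for gene length, and they hold no record of read depth. The samples had 17924 to 18879 genes above 0 TPM. Mitochondrially encoded transcripts took 44.0 to 47.3% of TPM in the LV and 48.7 to 52.7% in the RV of WT-PLN hearts, and, with R14del-PLN, 37.3 to 51.2% in the LV and 51.1 to 54.5% in the RV. Both WT-PLN samples numbered 1 had Y-linked genes at 0.191 TPM or less, where the other 10 samples reached at least 20.2 TPM, which goes against a group of males. The differences and shares of the 5 genes and the calls of other genes that rest on them are also given without them. RV R14del-PLN replicate 3 was deposited under the name of another run than the other samples. Of the markers of ventricular muscle, Myh6, Myl2, Myl3 and Tnni3 were abundant in every group, with the list of 7 summing to 21257 TPM or more, while Hand1 was listed at 0 in all samples of 3 groups. Markers of atrial muscle varied between samples, as described with Nppa.

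Nppb (147985788 to 147987205) and Nppa (148000722 to 148002079) are neighbours on the plus strand of chromosome 4 in GRCm38, 13516 bases apart. Acta1 lies on chromosome 8 from 123891769 to 123894751, Ankrd1 on chromosome 19 from 36111961 to 36120099 and Myh7 on chromosome 14 from 54970684 to 54994626, all on the minus strand. The promoters of the 4 genes with the largest mean differences between the ventricles follow, from 250 bases before to 50 bases after the start given by RefSeq on GRCm38.p6. Capitals mark matches, on either strand, to 2 short motifs: CATTCC (MCAT, which TEAD factors bind, read as GGAATG on the other strand) and AGATAA or TGATAA (which GATA factors bind, TTATCT or TTATCA on the other strand).
Nppb, chr4:147985650-147985949, plus strand: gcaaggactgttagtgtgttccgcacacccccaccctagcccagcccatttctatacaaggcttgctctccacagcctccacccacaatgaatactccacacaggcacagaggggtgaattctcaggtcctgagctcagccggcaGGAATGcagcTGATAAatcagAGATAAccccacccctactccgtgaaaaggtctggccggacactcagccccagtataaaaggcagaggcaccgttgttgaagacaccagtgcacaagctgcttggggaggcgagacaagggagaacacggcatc
Nppa, chr4:148000472-148000771, plus strand: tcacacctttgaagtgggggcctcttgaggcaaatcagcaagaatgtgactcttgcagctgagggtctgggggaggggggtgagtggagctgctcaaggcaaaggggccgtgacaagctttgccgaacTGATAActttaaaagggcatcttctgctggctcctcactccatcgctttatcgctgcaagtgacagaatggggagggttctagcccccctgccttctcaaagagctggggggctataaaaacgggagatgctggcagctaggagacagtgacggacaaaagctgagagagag
Acta1, chr8:123894726-123895025, minus strand: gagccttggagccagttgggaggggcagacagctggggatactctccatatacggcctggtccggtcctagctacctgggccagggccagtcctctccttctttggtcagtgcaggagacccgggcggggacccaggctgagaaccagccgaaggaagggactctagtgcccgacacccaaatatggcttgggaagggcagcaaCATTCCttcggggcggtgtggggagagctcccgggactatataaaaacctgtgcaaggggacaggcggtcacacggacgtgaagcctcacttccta
Ankrd1, chr19:36119795-36120094, minus strand: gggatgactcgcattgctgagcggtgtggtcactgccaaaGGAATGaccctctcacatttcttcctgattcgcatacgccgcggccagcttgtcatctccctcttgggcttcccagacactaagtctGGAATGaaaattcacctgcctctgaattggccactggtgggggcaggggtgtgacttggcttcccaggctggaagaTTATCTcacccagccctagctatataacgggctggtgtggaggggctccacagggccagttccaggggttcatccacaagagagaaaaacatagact
CATTCC was found in the windows of Nppb, Acta1 and Ankrd1 and in 1 of the 2 windows of Myh7, but not in that of Nppa. Of 32851 RefSeq windows of this length, 14.7% held it. The GATA motif was found in the windows of Nppa, Nppb and Ankrd1 and in 18.6% of all windows. The CArG box, which serum response factor binds, was found in the window of Acta1 and in 1.63% of all windows. The NKX2-5 motif TNAAGTG was found for Nppa and Myh7 and in 11.5% of all windows, and neither the AP-1 motif TGANTCA (7.81%) nor the MEF2 motif (1.86%) was found in any of the windows of the 5 genes. The marked matches do not overlap one another, and they describe letters in these windows, not bound sites.

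Nppb had the largest difference between ventricles. In WT-PLN hearts, the LV samples were at 242, 99.9 and 121 TPM and the RV samples at 30.1, 34.4 and 14.2 TPM (replicates 1, 2 and 3). In R14del-PLN hearts, the LV samples were at 178, 118 and 204 TPM and the RV samples at 10.9, 55.0 and 59.5 TPM. The lowest LV sample of either genotype was therefore above the highest RV sample of either genotype. Group means were 154 ± 76.8 and 26.2 ± 10.6 TPM in the LV and RV of WT-PLN hearts, and 167 ± 44.0 and 41.8 ± 26.9 TPM in the LV and RV of R14del-PLN hearts (mean ± SD, n = 3 each). The order from high to low was LV R14del-PLN, LV WT-PLN, RV R14del-PLN and RV WT-PLN, with both neighbouring pairs of genotypes overlapping. On the log2(TPM + 1) scale, RV differed from LV by -2.49 (SE 0.54) in WT-PLN hearts, with an unadjusted p = 4.7e-04 and an adjusted p = 0.177 by limma. In R14del-PLN hearts, the difference was -2.25 (SE 0.54, unadjusted p = 0.0011, adjusted p = 0.711 by limma). Leaving out RV R14del-PLN replicate 1, the lowest sample, brought the latter to -1.49, and leaving out the sample of the other run brought it to -2.66. Among the samples that share a replicate number, Nppb was higher in LV than in RV in 6 of 6, by 2.15-fold to 16.3-fold. Since LV and RV did not overlap, any other pairing would give 6 of 6 too.

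Nppa, the neighbour of Nppb, was less evenly distributed. It was at 123, 309 and 722 TPM in the LV and 89.1, 213 and 76.6 TPM in the RV of WT-PLN hearts. It was at 141, 313 and 253 TPM in the LV and 132, 143 and 32.7 TPM in the RV of R14del-PLN hearts. LV and RV samples overlapped in both genotypes, and the 3 LV samples of WT-PLN hearts spread over a 5.88-fold range. Means were 385 ± 307 and 126 ± 75.3 TPM in the LV and RV of WT-PLN hearts and 236 ± 87.1 and 103 ± 60.8 TPM in those of R14del-PLN hearts (mean ± SD, n = 3 each), and no group was separated from its neighbour in that order. RV differed from LV by -1.40 (SE 0.64, unadjusted p = 0.0472, adjusted p = 0.340 by limma) in WT-PLN hearts and by -1.38 (SE 0.64, unadjusted p = 0.0512, adjusted p = 0.762) in R14del-PLN hearts. Without LV WT-PLN replicate 3, the sample at 722 TPM, the WT-PLN difference was -0.78. Without RV R14del-PLN replicate 3, the lowest sample and the one of the other run, the R14del-PLN difference was -0.70. Among samples that share a replicate number, Nppa was higher in LV than in RV in 6 of 6, by 1.07-fold to 9.42-fold.

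Atrial muscle makes far more Nppa than ventricular muscle, so markers of atrial muscle were set beside it. The summed level of 7 markers (Sln, Myl7, Myl4, Mybphl, Bmp10, Dkk3 and Stard10) was 104, 19.5 and 637 TPM in the LV and 26.8, 718 and 24.8 TPM in the RV of WT-PLN hearts. Among R14del-PLN samples, the sum was 17.5, 18.7 and 18.7 TPM in the LV and 89.2, 410 and 26.5 TPM in the RV. The WT-PLN sample with the most Nppa, LV replicate 3, was also high in these markers, and so was the highest RV sample of each genotype. In the LV of R14del-PLN hearts, Myl7 was at 0.440 TPM or less, Sln at 0.142 TPM or less and Nppa at 141 to 313 TPM. LV WT-PLN replicate 2, at 19.5 TPM of the markers, had 309 TPM of Nppa. The part of atrial tissue in the values of Nppa and Nppb was not tested. Nppb was at 121 TPM in LV WT-PLN replicate 3 and 34.4 TPM in RV WT-PLN replicate 2, the samples highest in these markers. In bulk tissue, a change in the number of cells of a type cannot be told apart from a change in their RNA.

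**Figure D1:**
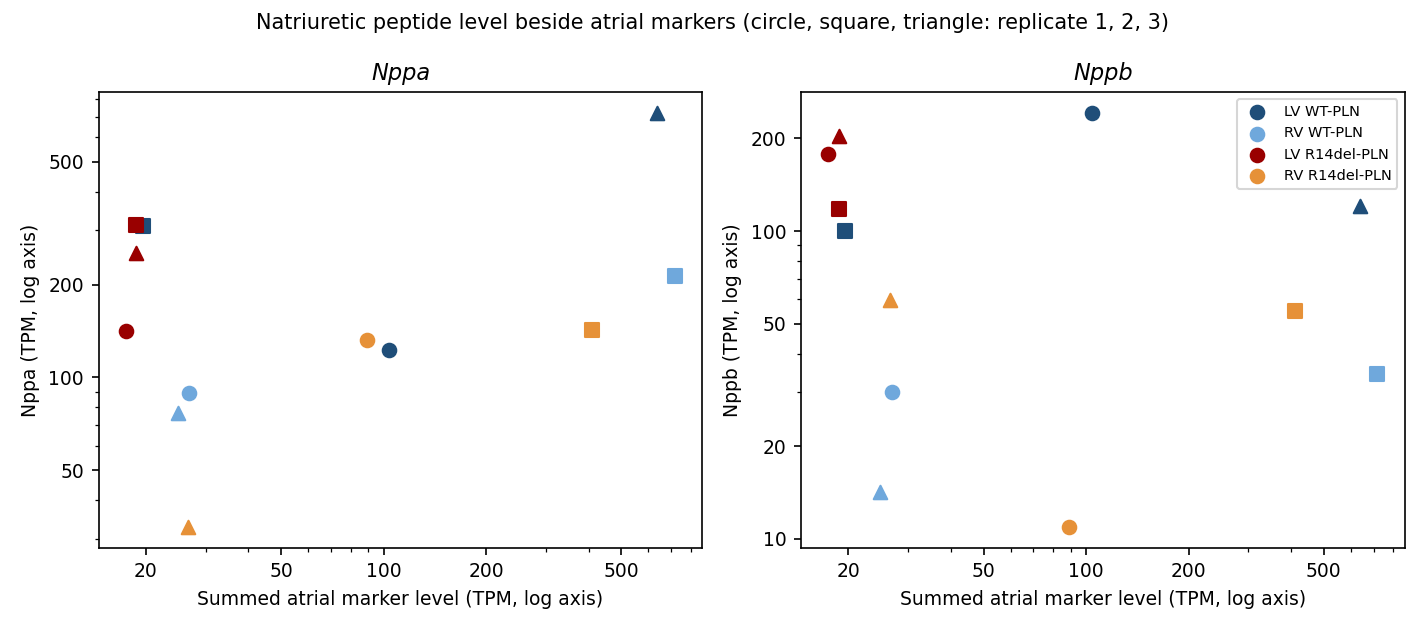
Level of Nppa (left) and Nppb (right) in TPM against the summed TPM of 7 atrial muscle markers, both on log axes, with 1 point for each of the 12 samples. Colours give the group, and circle, square and triangle give replicates 1, 2 and 3. LV WT-PLN replicate 3 is highest for Nppa at 722 TPM with 637 TPM of markers, while the 3 LV R14del-PLN samples lie at 17.5 to 18.7 TPM of markers with 141 to 313 TPM of Nppa.

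Nppb made up 35.05 ± 27.6% of the summed TPM of Nppa and Nppb in the LV and 18.3 ± 6.11% in the RV of WT-PLN hearts, and 42.6 ± 14.3% and 33.3 ± 28.9% in the LV and RV of R14del-PLN hearts (mean ± SD, n = 3 each). Single samples ran from 7.63% to 66.4%. All 4 pairs of groups overlapped, with an exact permutation p of 0.6 to 0.8 and 0.8 in each case after adjustment over the 4 comparisons. Each difference between groups was smaller than the larger SD of the pair. With both WT-PLN samples numbered 1 left out, the WT-PLN means were 19.4% in the LV and 14.8% in the RV, and the LV share of 14.3 to 24.4% then lay below the 27.4 to 55.8% of LV R14del-PLN.

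Acta1, the skeletal form of alpha-actin, was at 129, 197 and 130 TPM in the LV and 19.2, 47.3 and 36.6 TPM in the RV of WT-PLN hearts. It was at 66.4, 50.5 and 118 TPM in the LV and 6.75, 38.3 and 30.7 TPM in the RV of R14del-PLN hearts. LV and RV did not overlap in either genotype, and the 3 LV samples of R14del-PLN hearts lay below the 3 of WT-PLN hearts. Of all tested genes, 25.2% lay wholly lower in the RV of WT-PLN hearts and 8.72% in that of R14del-PLN hearts. Between genotypes in the LV, 8.47% lay wholly lower in R14del-PLN hearts. Means were 152 ± 39.0 TPM in LV WT-PLN, 78.2 ± 35.2 TPM in LV R14del-PLN, 34.3 ± 14.2 TPM in RV WT-PLN and 25.2 ± 16.4 TPM in RV R14del-PLN (mean ± SD, n = 3 each), and of these only the RV groups overlapped with their neighbour. RV differed from LV by -2.18 (SE 0.52, unadjusted p = 9.7e-04, adjusted p = 0.204 by limma) in WT-PLN hearts. In R14del-PLN hearts, it differed by -1.81 (SE 0.52, unadjusted p = 0.0038, adjusted p = 0.711 by limma), and by -1.08 without RV R14del-PLN replicate 1. Acta1 was higher in LV than in RV in 6 of 6 pairs of samples with 1 number, by 1.32-fold to 9.83-fold. As LV and RV did not overlap, this count would hold for any pairing.

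The genotype difference of Acta1 in the LV was -1.01 (SE 0.52, 95% interval -2.12 to 0.10), with an unadjusted p = 0.0713 and an adjusted p = 0.574 by limma, so that it did not pass. In the RV it was -0.64 (SE 0.52) with an unadjusted p = 0.236. Without RV R14del-PLN replicate 1, which at 6.75 TPM was the lowest of the 12 samples, the RV difference was 0.09. Markers of skeletal muscle summed to 9.32 to 11.3 TPM in the LV and 4.69 to 6.53 TPM in the RV of WT-PLN hearts, while R14del-PLN samples had 5.53 to 11.4 TPM in the LV and 3.91 to 8.09 TPM in the RV. At least 7 of these 11 markers averaged below 0.5 TPM in each group, the fast myosins Myh1, Myh2 and Myh4 were at 0.0827 TPM or less in every sample, and Myh1 was listed at 0 throughout the RV of R14del-PLN hearts.

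Acta1 was also read against Actc1, the cardiac alpha-actin that dominates the adult ventricle. Acta1 made up 2.42 ± 0.591% of the summed TPM of both actins in the LV and 0.723 ± 0.272% in the RV of WT-PLN hearts. It made up 1.26 ± 0.322% in the LV and 0.523 ± 0.336% in the RV of R14del-PLN hearts (mean ± SD, n = 3 each). The 3 samples of each group did not overlap between LV and RV in either genotype or between genotypes in the LV, each with an exact permutation p = 0.1, the smallest that 3 samples against 3 allow, and an adjusted p = 0.133. In the RV, the genotypes overlapped (exact p = 0.5). The WT-PLN means were 2.48% in the LV and 0.853% in the RV without both samples numbered 1, and the LV still did not overlap with the LV of R14del-PLN hearts. The transcripts of the actins are 86.3% identical over 1132 aligned bases, and how reads shared by both were assigned is not stated. Gm20388, annotated on the opposite strand over the whole of Acta1, was at 4.30 to 7.41 TPM, and strand use in the counting is not stated either.

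Myh7 varied least of the 5 genes, by 2.29-fold between the lowest and the highest of the 12 samples. It was at 105, 199 and 214 TPM in the LV and 93.1, 176 and 127 TPM in the RV of WT-PLN hearts. It was at 145, 182 and 167 TPM in the LV and 146, 179 and 98.5 TPM in the RV of R14del-PLN hearts. Myh7 was higher in LV than in RV in 5 of 6 pairs of samples with 1 number. All groups overlapped, with means of 173 ± 59.0, 132 ± 41.5, 165 ± 18.5 and 141 ± 40.3 TPM in that order (mean ± SD, n = 3 each). RV differed from LV by -0.37 (SE 0.29, adjusted p = 0.524 by limma) in WT-PLN and by -0.26 (SE 0.29, adjusted p = 0.964) in the mutants. Between genotypes, the difference was 0.00 in the LV (95% interval -0.63 to 0.62) and 0.10 in the RV (95% interval -0.52 to 0.72), and its sign changed with the scaling in the LV and with single samples in both ventricles.

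Myh7 made up 3.73 ± 0.633% of the summed TPM of Myh6 and Myh7 in the LV and 2.77 ± 0.619% in the RV of WT-PLN hearts, and 3.84 ± 0.896% and 2.93 ± 0.865% in the LV and RV of R14del-PLN hearts (mean ± SD, n = 3 each). Single samples lay between 2.12% and 4.39%, so that the fast myosin Myh6 made up the rest in every heart. None of the 4 comparisons separated the groups (exact permutation p of 0.2 to 0.8, adjusted p of 0.6 to 0.8). Leaving out both WT-PLN samples numbered 1 gave WT-PLN means of 4.10% in the LV and 2.87% in the RV, and these groups, now of 2 samples, did not overlap. Myh6, which lies 3756 bases from Myh7 on the same strand, was at 4356 ± 866 and 4626 ± 957 TPM in LV WT-PLN and RV WT-PLN, and 4331 ± 1328 and 5107 ± 2735 TPM in LV R14del-PLN and RV R14del-PLN (mean ± SD, n = 3 each). The transcripts are 91.8% identical over 5810 aligned bases, so reads that both share could move between them. Several annotated transcripts run over Myh7 on the opposite strand, among them Mhrt.

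**Figure D2:**
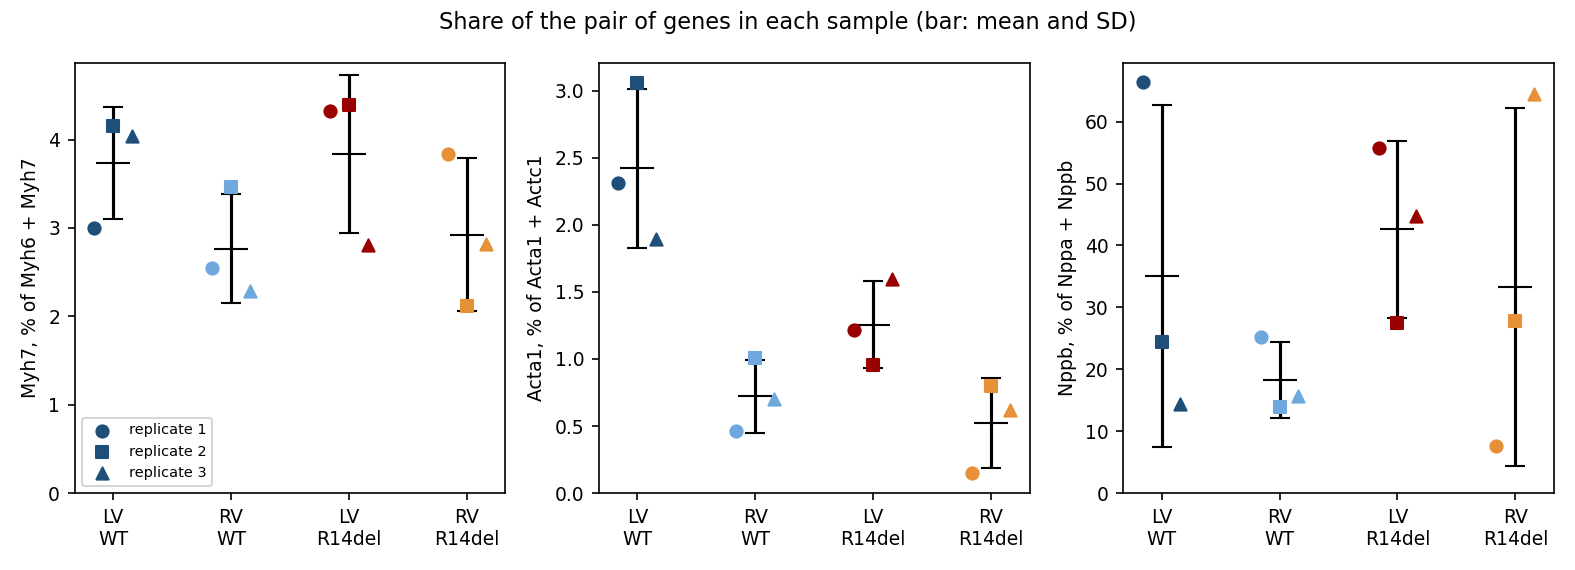
Share of Myh7 in Myh6 plus Myh7, of Acta1 in Acta1 plus Actc1 and of Nppb in Nppa plus Nppb, in percent of summed TPM, for each sample of the 4 groups, with circle, square and triangle for replicates 1, 2 and 3 and bars for the mean and SD of 3 samples. The share of Acta1 is 1.89 to 3.06% in LV WT-PLN, 0.954 to 1.595% in LV R14del-PLN and 1.01% or less in RV WT-PLN, while the groups overlap for the other shares.

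Ankrd1 was the most abundant of the 5 genes, with a mean of 939 TPM over the 12 samples, which ranked 64 of the 33641 genes. Nppa ranked 304, Myh7 399, Nppb 605 and Acta1 774. Ankrd1 was at 947, 1052 and 1464 TPM in the LV and 367, 687 and 504 TPM in the RV of WT-PLN hearts. It was at 932, 1215 and 1675 TPM in the LV and 348, 1312 and 767 TPM in the RV of R14del-PLN hearts. LV and RV did not overlap in WT-PLN hearts, whereas RV R14del-PLN replicate 2 lay above LV samples of its genotype. The means were 1154 ± 273, 520 ± 161, 1274 ± 375 and 809 ± 484 TPM in that order (mean ± SD, n = 3 each). RV differed from LV by -1.17 (SE 0.39, unadjusted p = 0.0100, adjusted p = 0.269 by limma) in WT-PLN hearts and by -0.81 (SE 0.39, unadjusted p = 0.0572, adjusted p = 0.770) in R14del-PLN hearts. The latter was -1.26 without RV R14del-PLN replicate 2 and -0.30 without replicate 1. Between genotypes, Ankrd1 differed by 0.13 (SE 0.39) in the LV and 0.49 (SE 0.39) in the RV, and the groups overlapped in both.

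**Figure D3:**
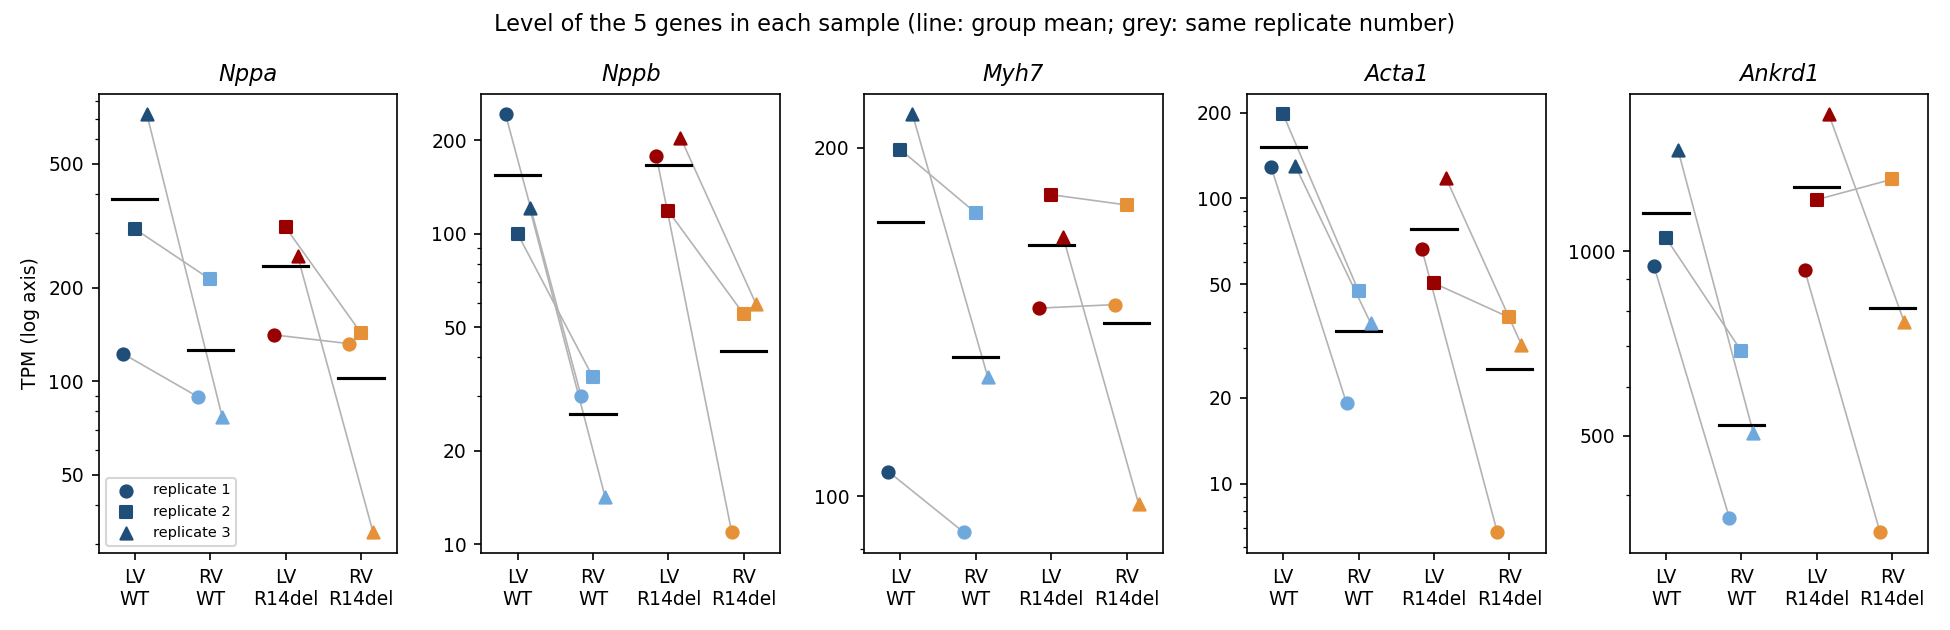
Level of the 5 genes in TPM on a log axis in each sample of the 4 groups, with the group mean as a black line and grey lines between LV and RV samples of 1 replicate number. Nppa, Nppb and Acta1 are higher in LV than in RV in all 6 such pairs, and Ankrd1 and Myh7 in 5 of 6. For Nppb and Acta1, whose LV and RV samples do not overlap, any pairing would give this.

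Counted over the comparison of RV with LV in WT-PLN hearts, the samples of 3 of the 5 genes (Nppb, Acta1 and Ankrd1) lay wholly lower in the RV. Such a separation was seen in 25.2% of the 12526 genes. At an unadjusted p of at most 0.05, 4 of 5 were lower (Myh7 was not), against 13.8% of genes. None of the 5 was called, which required an adjusted p no higher than 0.05 together with a fold change of 1.5 or more, and nor was any other gene (0% of genes, with 1811 at an unadjusted p of at most 0.05). Nppb ranked 33 and Acta1 59 of 12526 genes by p. The median difference of the 5 genes was -1.40, where that of all genes was -0.17. With quantile normalization, which brings the latter to 0.01, Nppb differed by -2.29, Acta1 by -1.97, Nppa by -1.25 and Myh7 by -0.18. Without both WT-PLN samples numbered 1, Nppb differed by -2.26, Acta1 by -1.92, Nppa by -1.88, Ankrd1 by -1.07 and Myh7 by -0.47, none called, and all 5 lay wholly lower in the RV, against 51.8% of genes.

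The LV and RV samples with 1 replicate number deviated together in WT-PLN hearts. With this number as a block, Nppb and Acta1 were both called lower in the RV of WT-PLN hearts, each at an adjusted p = 0.0436 by limma, among 12 genes called (0.0958%). Ankrd1 was at an adjusted p = 0.0805 and Nppa at 0.225 in that fit, which had 4 residual degrees of freedom. The fixed block also covered the R14del-PLN samples, for which the number was not shown to pair LV and RV. The spread behind these calls therefore came from both genotypes. With the block as a random term instead, at an estimated correlation of 0.0885, neither was called, with an adjusted p = 0.116 by limma for Nppb and an adjusted p = 0.137 for Acta1. With the fixed block and without both WT-PLN samples numbered 1, a fit with 3 residual degrees of freedom, 74 genes were called (0.591%), among them Nppb (adjusted p = 0.0040), Acta1 (adjusted p = 0.0053) and Nppa (adjusted p = 0.0397 by limma).

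In R14del-PLN hearts, 2 of the 5 genes (Nppb and Acta1) lay wholly lower in the RV, against 8.72% of genes, and the same genes were lower at an unadjusted p of at most 0.05, against 6.07% of genes. Again none of the 5 was called, nor was any other gene (0%, with 823 at an unadjusted p of at most 0.05). Nppb ranked 13 and Acta1 63 of 12526 genes. The median difference of the 5 genes was -1.38, where that of all genes was -0.08. With quantile normalization, Nppb differed by -2.11 and Acta1 by -1.68.

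Averaged over both genotypes, a contrast chosen after the values were seen, RV was compared with LV over all 12 samples. Nppb fell by 2.37 on the log2 scale (SE 0.38, adjusted p = 0.0233 by limma) and Acta1 fell by 1.99 (SE 0.36, adjusted p = 0.0388 by limma), which makes 2 of 5 genes called where 33 genes in all were (0.263%). Ankrd1 was at -0.99 (adjusted p = 0.0865), Nppa at -1.39 (adjusted p = 0.119) and Myh7 at -0.31 (adjusted p = 0.390). These calls changed when single samples were left out (adjusted p by limma in parentheses). Nppb was no longer called without LV WT-PLN replicate 3 (0.0608), RV WT-PLN replicate 1 (0.0518) or 3 (0.0804), LV R14del-PLN replicate 2 (0.0544) or 3 (0.0764), or RV R14del-PLN replicate 3 (0.0536). Acta1 was not called without these (0.104, 0.104, 0.0914, 0.0599, 0.0837 and 0.0809 in that order), nor without LV WT-PLN replicate 2 (0.0849) or LV R14del-PLN replicate 1 (0.0540). Without both WT-PLN samples numbered 1, Nppb was at 0.0928 and Acta1 at 0.0951. The log2 difference stayed between -1.99 and -2.58 for Nppb and between -1.63 and -2.21 for Acta1 whichever sample was left out. Ankrd1 was called without RV R14del-PLN replicate 2 (adjusted p = 0.0308). With the replicate number as a block, 95 genes were called (0.758%) and 3 of the 5 were among them, namely Nppb, Acta1 and Ankrd1. This block also pairs the R14del-PLN samples, for which the number was not shown to pair LV and RV.

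Endothelial markers also had lower values in the RV, with 5 genes (Pecam1, Cdh5, Kdr, Tie1 and Egfl7) summing to 131 to 170 TPM in the LV and 96.9 to 112 TPM in the RV of WT-PLN hearts, and to 131 to 163 TPM and 104 to 131 TPM in those of R14del-PLN hearts. None of them was at 0. Macrophage and blood markers summed to 1300 to 1423 TPM in LV WT-PLN and 890 to 1090 TPM in RV WT-PLN. With R14del-PLN, they summed to 677 to 1229 TPM in the LV and 618 to 787 TPM in the RV. LV and RV thus did not overlap with WT-PLN but did with R14del-PLN. Within each ventricle, all R14del-PLN samples lay below all WT-PLN samples. Smooth muscle and pericyte markers had a median difference of -1.02 between ventricles in WT-PLN hearts, where that of endothelial markers was -0.50, and of 0.04 in R14del-PLN hearts. They summed to 143 to 276 TPM in LV WT-PLN, 118 to 149 TPM in RV WT-PLN, 122 to 193 TPM in LV R14del-PLN and 128 to 168 TPM in RV R14del-PLN. Each gene of both lists was above 0 in every group. The mitochondrial share given above was higher in the RV of WT-PLN hearts. With mitochondrially encoded genes removed, Nppb differed by -2.38 and Acta1 by -2.06 in WT-PLN hearts. The part of any of these in the differences of Nppb and Acta1 was not tested.

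**Figure D4:**
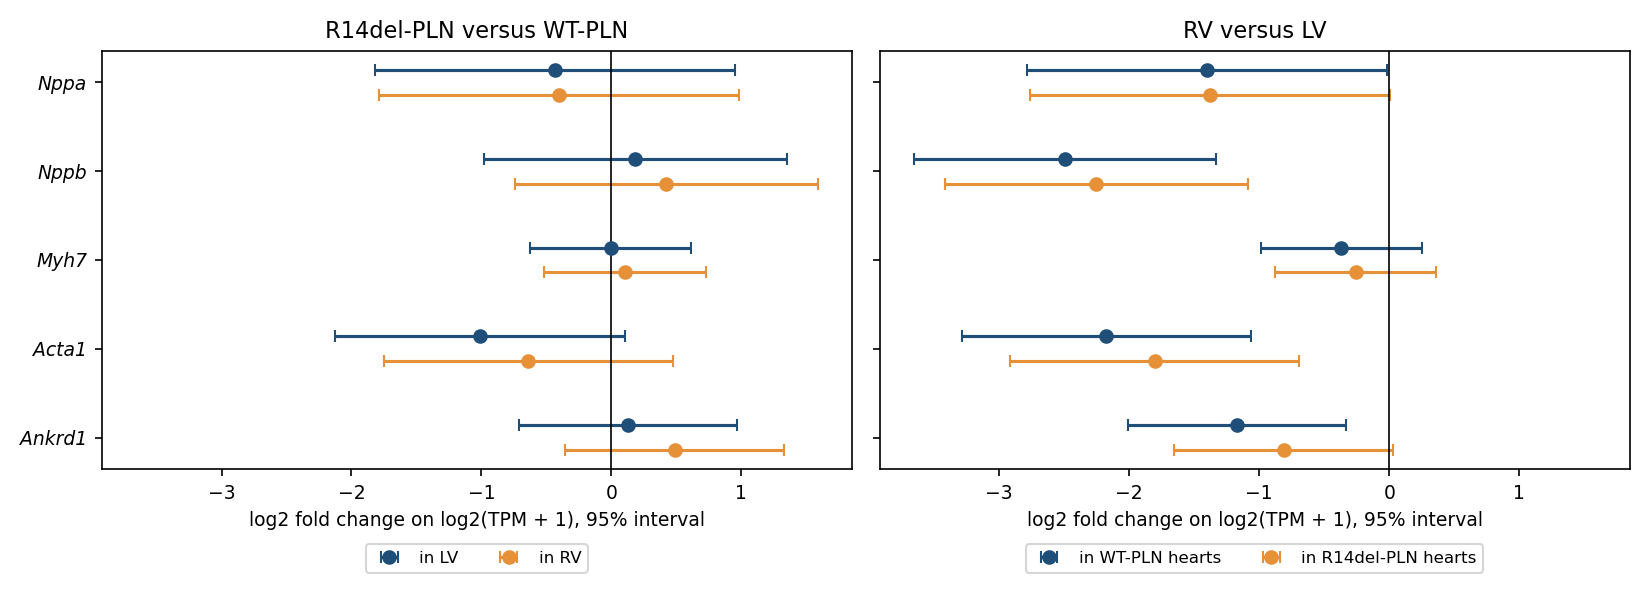
Log2 fold change of the 5 genes on the log2(TPM + 1) scale with 95% intervals from limma, for R14del-PLN versus WT-PLN (left, in LV and RV) and RV versus LV (right, in WT-PLN and R14del-PLN hearts). The genotype intervals all include 0, while those of Nppb and Acta1 between ventricles lie below 0 in both genotypes. In WT-PLN hearts they run from -3.66 to -1.33 and from -3.29 to -1.06. Those of Ankrd1 (-2.01 to -0.33) and Nppa (-2.79 to -0.02) also lie below 0 there, but not in R14del-PLN hearts. The intervals are not adjusted for the number of genes, and none of the differences shown was called in this fit.

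Between genotypes, 0 of the 5 genes were called in the LV, where 0.519% of genes were, and 0 of 5 in the RV, where 0.271% were. None of the 5 reached an unadjusted p of 0.05 in either ventricle. In the LV, 1 of 5 (Acta1) lay wholly lower in R14del-PLN hearts, against 8.47% of genes. The adjusted p by limma was 0.894 for Nppa, 0.953 for Nppb, 0.997 for Myh7, 0.574 for Acta1 and 0.956 for Ankrd1 in the LV, and 1 for each in the RV. The 95% intervals were wide: for Nppb, the difference was 0.18 (-0.98 to 1.35) in the LV and 0.42 (-0.74 to 1.59) in the RV, and for Nppa -0.43 (-1.82 to 0.95) in the LV and -0.40 (-1.79 to 0.98) in the RV. Without both WT-PLN samples numbered 1, Nppa differed by -1.08, Nppb by 0.56, Myh7 by -0.33, Acta1 by -1.12 and Ankrd1 by -0.0038 in the LV, where Acta1 and Myh7 then lay wholly lower, against 24.9% of genes. In the RV, the differences without them were -0.58 for Nppa, 0.56 for Nppb, -0.12 for Myh7, -1.0002 for Acta1 and 0.26 for Ankrd1. None of the 5 was called in either. The LV WT-PLN samples served both as controls of the genotype comparison and as the LV side of the ventricle comparison, so that these values are not independent.

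The difference between RV and LV did not detectably depend on genotype. The interaction was 0.24 (SE 0.76) for Nppb, 0.37 (SE 0.73) for Acta1, 0.36 (SE 0.55) for Ankrd1, 0.03 (SE 0.91) for Nppa and 0.11 (SE 0.41) for Myh7, each with an adjusted p = 0.9999 by limma. No gene was called for it (0%), with 127 at an unadjusted p of at most 0.05. The interval for Nppb ran from -1.41 to 1.89. The interaction without both WT-PLN samples numbered 1 lay between 0.0041 for Nppb and 0.50 for Nppa.

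Across the 12 samples, the level of Nppb on the log scale was most like that of Tnfrsf12a, which encodes the TWEAK receptor (Pearson r = 0.956), followed by Ptgds (0.931) and Igfals (0.926). Ankrd1 was most like Ankrd23, another ankyrin repeat protein that titin holds (0.977), Ackr3 (0.966) and Mybpc2 (0.963). Acta1 was most like Klhl34 (0.946), Gsta2 (0.938) and Habp2 (0.937), and Myh7 like Dhx57 (0.924), Cdk1 (0.922) and Cntrob (0.907). Nppa was most like Snx33 (0.937), E4f1 (0.930) and Dvl1 (0.929). The genes named with Acta1, Myh7 and Nppa averaged 0.943 to 3.17 TPM, apart from Dvl1 at 14.2 TPM. Among the 5 genes themselves, r was 0.853 for Nppa and Myh7, 0.813 for Nppb and Ankrd1, 0.807 for Nppb and Acta1, and 0.398 for Nppa and Nppb. These values describe 12 samples that share ventricle, genotype and scaling.

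The natriuretic peptide pathway around Nppa and Nppb was followed in 14 genes, of which 12 were tested and 0 called in any of the 4 comparisons. Its median difference between ventricles was -0.10 for WT-PLN and 0.05 for R14del-PLN. Npr1, the receptor of both peptides, was at 5.69 ± 1.55 TPM in the LV and 3.98 ± 0.591 TPM in the RV of WT-PLN mice, and 4.67 ± 0.778 and 4.43 ± 0.702 TPM in those of R14del-PLN hearts (mean ± SD, n = 3 each). The receptor that clears the peptides, Npr3, was at 2.63 ± 1.07 and 3.997 ± 1.56 TPM in the LV and RV of WT-PLN hearts. Corin, the protease that cuts the Nppa precursor, was at 55.9 ± 4.96 and 70.3 ± 10.6 TPM, and Furin, which cuts the Nppb precursor, at 27.3 ± 4.87 and 25.5 ± 4.57 TPM in those groups. Pde9a, a cyclic GMP phosphodiesterase, differed by -0.43 between RV and LV of WT-PLN hearts (adjusted p = 0.269 by limma). Pcsk6, which activates corin, differed by -0.39 between genotypes in the RV (adjusted p = 0.620).

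Of 16 sarcomere isoform partners of Myh7 and Acta1, 15 were tested and 0 called. Their median difference between ventricles was -0.39 for WT-PLN, and -0.10 for R14del-PLN. Actc1 was at 6145 ± 652 and 4652 ± 535 TPM in the LV and RV of WT-PLN hearts (mean ± SD, n = 3 each), a difference of -0.40 (adjusted p = 0.293 by limma). The ventricular light chain Myl3 differed by -0.35 there and by -0.39 in R14del-PLN hearts (adjusted p = 0.711). Tnni1, the fetal troponin I, was at 0.553 TPM or less in every sample and was not tested, while the adult form Tnni3 averaged 3996 to 4142 TPM.

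Ankrd1 has partners in the titin complex, of which 13 were listed, 12 tested and 0 called. Ankrd23 was at 244 ± 29.1 and 99.9 ± 24.2 TPM in LV WT-PLN and RV WT-PLN, and 240 ± 58.1 and 160 ± 117 TPM in LV R14del-PLN and RV R14del-PLN (mean ± SD, n = 3 each). The WT-PLN difference was -1.30 (SE 0.40, adjusted p = 0.251 by limma). Csrp3, the muscle LIM protein, differed between ventricles by -0.41 in WT-PLN hearts and -0.43 in the mutants (adjusted p = 0.253 and 0.711). Titin (Ttn) and myopalladin (Mypn), which hold Ankrd1, averaged 39.4 to 44.0 TPM and 23.6 to 26.8 TPM over the groups. Ankrd2, the skeletal relative of Ankrd1, was at 0.251 TPM or less.

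Among 13 YAP and TEAD factors and targets, 1 was called lower in R14del-PLN hearts in each ventricle, where 0.519% of all genes in the LV and 0.271% in the RV were called. This was Ctgf, a matrix protein, which fell by 1.95 in the LV and by 2.62 in the RV on the log2 scale (adjusted p = 0.0476 and 0.0102 by limma), and by 2.34 and 2.96 without both WT-PLN samples numbered 1 (adjusted p = 0.0030 and 7.4e-04 by limma). Amotl2, another target, differed by -0.50 in the LV (adjusted p = 0.341). Between ventricles, the list had a median of -0.17 in WT-PLN hearts, the same as that of all genes. Ankrd1, itself a known target, differed between genotypes by the 0.13 and 0.49 given above.

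Of 17 genes of the hypertrophy and stretch response, 15 were tested. Between genotypes, 1 was called lower in R14del-PLN hearts in the LV, where 0.519% of all genes were called. In the RV, 0 were called, against 0.271% of all genes. The called gene was the metallothionein Mt2, which fell by 1.84 in the LV on the log2 scale (adjusted p = 0.0236 by limma). Mt2 was called in both ventricles without both WT-PLN samples numbered 1, at -2.15 in the LV and -1.87 in the RV (adjusted p = 0.0026 and 0.0094 by limma). Between ventricles, 0 were called in either genotype, and 9 of 15 in WT-PLN and 4 of 15 in R14del-PLN hearts were lower in the RV at an unadjusted p of at most 0.05, against 13.8% and 6.07% of all genes. The median differences were -0.46 and -0.26, against -0.17 and -0.08 over all genes. Tnfrsf12a, whose level followed Nppb, averaged 39.0 ± 10.4 and 15.9 ± 3.40 TPM in the LV and RV of WT-PLN hearts and 38.5 ± 8.57 and 16.2 ± 6.12 TPM in those of R14del-PLN hearts (mean ± SD, n = 3 each). In the contrast averaged over genotypes, it fell by 1.24 on the log2 scale (adjusted p = 0.0233 by limma), and was not called without both WT-PLN samples numbered 1 (-1.19, adjusted p = 0.0936 by limma).

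The transcription factors that drive or restrain the fetal program, 17 of 18 of which matched a symbol and were tested, gave 0 calls. Gata4 differed by 0.36 between genotypes in the RV (adjusted p = 0.752 by limma) and Hand2 by -0.88 in the LV (adjusted p = 0.307). Nkx2-5, which averaged 21.1 to 25.3 TPM, Mef2c, at 15.5 to 19.7 TPM, and Rest, a repressor of Nppa and Nppb at 1.97 to 2.18 TPM, differed by 0.33 or less in size between genotypes. The median difference between ventricles was -0.05 for WT-PLN and 0.03 for R14del-PLN.

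**Figure D5:**
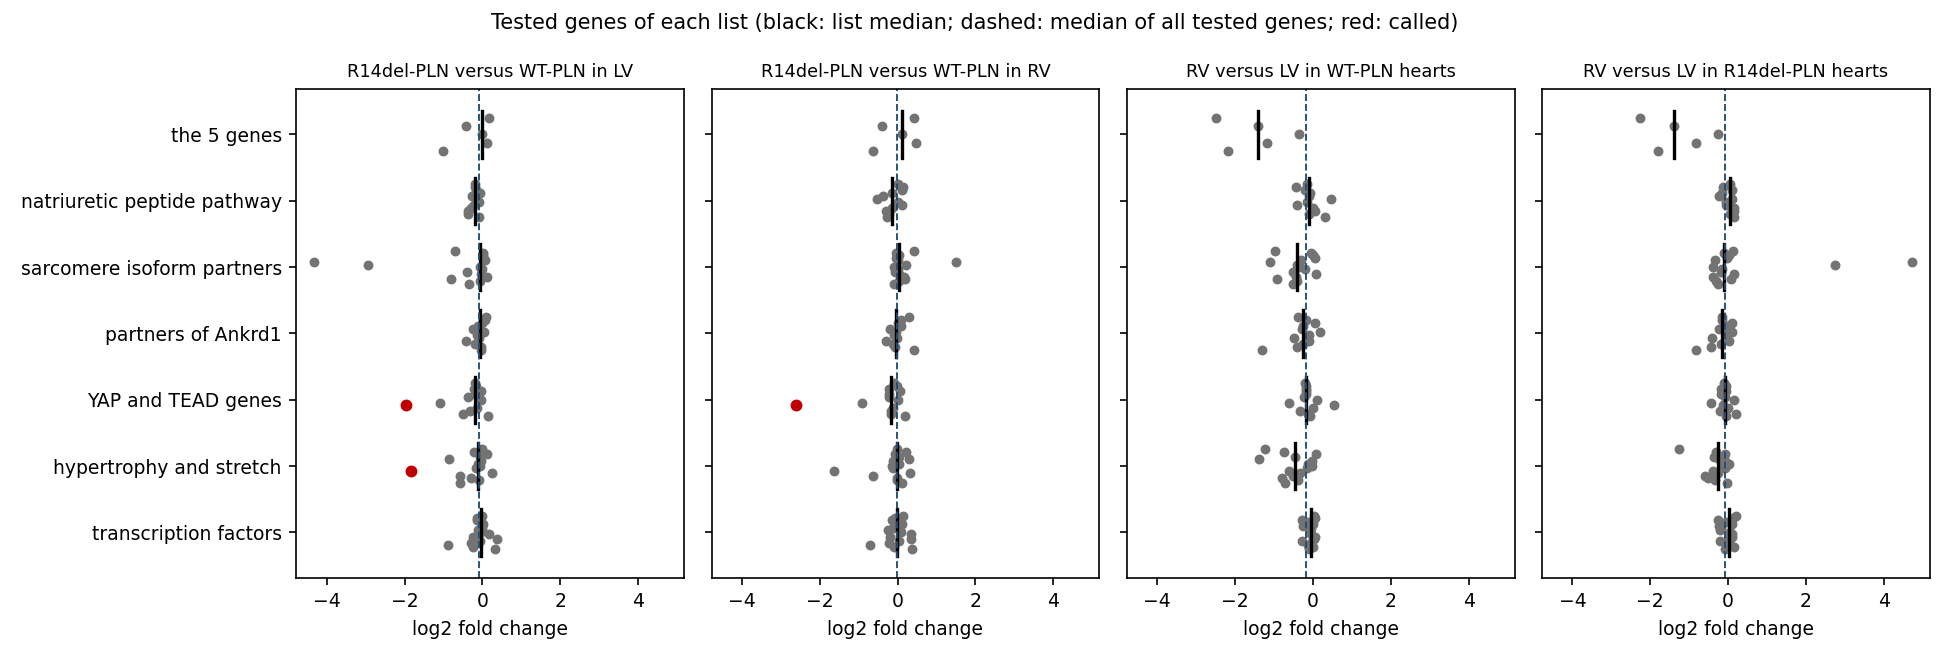
Log2 fold change of each tested gene (points) of the 5 genes and 6 lists in the 4 comparisons, with the median of each list in black, that of all tested genes as a dashed line and called genes in red. The 5 genes have medians of -1.40 and -1.38 between ventricles, and the called genes are Ctgf and Mt2 in the genotype comparisons.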

How the data were processed

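Poly(A) RNA was sequenced by the study from 12 mouse ventricle samples. For each gene and sample, the authors deposited a TPM value, used here unchanged. The study's methods name CLC Genomics Workbench 20.0.2 and GRCm38 for mapping, and the program and annotation behind the TPM values and the use of strand are not given in the sources used here. TPM keep no depth, so no counting error, floor or interval for depth could be given.

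Groups and replicate numbers were taken from the labels. The titles of the mutant samples read KO, and these were taken as the R14del-PLN samples that the study describes. In R 4.3.3, limma 3.58.1 was run with an intensity trend (residual df 8, prior df 5.15) on log2(TPM + 1) of the 12526 genes averaging 0.5 TPM or more, all 12 samples in 1 model. Folds on this scale understate the change of low genes. A call needed a p, adjusted by Benjamini and Hochberg, no higher than 0.05 and a fold of 1.5 or more (p alone for the interaction). The model was tested on simulated data. Shares of gene pairs were compared with two-sided exact permutation tests, where 3 against 3 allow no p below 0.1. p-values measure the spread between these samples. Same-numbered LV and RV samples correlated in their deviations from group means at 0.321 to 0.657 in WT-PLN and 0.0542 to 0.389 in R14del-PLN hearts. The number was taken to pair samples of WT-PLN hearts, since all 3 correlations exceeded 0.1. The highest, 0.657, was that of the WT-PLN samples numbered 1. In R14del-PLN hearts, only number 3, at 0.0542, lay below this cut. The cut was applied to the same values that the block fits use, so the pairing has no separate evidence.

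Positions came from GENCODE M21 on GRCm38 and promoters from RefSeq on GRCm38.p6 (all 5 genes matched). BLAST 2.17.0 found 0 near-identical copies of the 5 genes (95% identity over 80% of the shorter transcript). Further tools were scipy 1.17.1, pandas 2.3.3, numpy 2.4.6 and matplotlib 3.10.9 under Python 3.11.15, and statmod 1.5.0.

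The members and lists were chosen with earlier results of these data known. Named were the 5 genes, any list gene called in 1 of the 4 comparisons, the 2 genes of each pathway list with the smallest p, fixed partners and, for likeness, the 3 genes with the highest r. 1 gene of the hypertrophy and stretch list is not reported here and was left out of its counts. Markers of cell types were named as members of fixed lists. Fibroblast, smooth muscle, conduction system and macrophage lists had 0 calls in any comparison. Alternatives were other pseudocounts (0.5 and 0.1), filters, scalings, blocks and sample subsets.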

Additional observations from a re-analysis of the deposited data

How the results depend on the processing

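The 5 log2 differences between RV and LV stayed negative in all 100 alternative results in WT-PLN, 90 in R14del-PLN and 80 averaged over genotypes. Part of these could not change sign. Other filters, the fit without a trend, fits on only the 6 samples of a comparison and the blocks leave the log2 difference as it is. Genotype differences changed sign in 11 of 95 in the LV and 6 of 95 in the RV, totals that also hold such alternatives. No member was called in the genotype comparisons under any alternative. Myh7 in the LV was 0.0743 with quantile normalization, 0.13 with upper quartile scaling and 0.0124 without mitochondrially encoded genes. With upper quartile scaling, the interaction was -0.0841 for Nppa and -0.0027 for Myh7. Without both WT-PLN samples numbered 1, Ankrd1 in the LV was -0.0038 and Myh7 in the RV -0.12, while in the averaged contrast Nppb was -2.25 and Acta1 -1.86, no longer called. Acta1 was also lost there with quantile normalization (-1.83, adjusted p = 0.0524 by limma). The causes were not tested.

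The block of LV and RV of 1 number covered both genotypes. With it, Nppb (-2.49) and Acta1 (-2.18) were called in WT-PLN hearts and Ankrd1 (-0.99, adjusted p = 0.0226 by limma) in the averaged contrast. Without both WT-PLN samples numbered 1, an alternative chosen after seeing the data, this block called Nppa (-1.88), Nppb (-2.26) and Acta1 (-1.92) in WT-PLN hearts and Nppa (-1.63) and Ankrd1 (-0.94) in the averaged contrast besides Nppb and Acta1. As a random term, the block left Nppb and Acta1 without a call in WT-PLN hearts. The fixed block changed no other call among the 5 genes. In R14del-PLN hearts, Nppb had an adjusted p = 0.268 by limma with the block. Genotype comparisons with the number as a block called 119 genes in the LV and 62 in the RV, against 65 and 34 without, and 0 of the 5. Same-numbered samples of the 2 genotypes correlated at -0.0209 to 0.156 in the LV and 0.0610 to 0.219 in the RV, so the number was not taken to pair genotypes.

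Leaving out each sample in turn gave, for R14del-PLN versus WT-PLN in the LV, -1.08 to 0.20 for Nppa, -0.0747 to 0.56 for Nppb, -0.33 to 0.18 for Myh7, -1.35 to -0.75 for Acta1 and -0.0917 to 0.33 for Ankrd1. In the RV the ranges were -0.77 to 0.28 for Nppa, 0.01 to 1.19 for Nppb, -0.12 to 0.34 for Myh7, -1.08 to 0.0882 for Acta1 and 0.04 to 0.99 for Ankrd1. For the interaction they were -0.60 to 0.71 for Nppa, -0.17 to 1.00 for Nppb, -0.12 to 0.43 for Myh7, -0.0702 to 1.10 for Acta1 and -0.0888 to 0.87 for Ankrd1. For RV versus LV averaged over both genotypes they were -1.71 to -1.05 for Nppa, -2.58 to -1.99 for Nppb, -0.47 to -0.20 for Myh7, -2.21 to -1.63 for Acta1 and -1.22 to -0.74 for Ankrd1. Counts of called genes, leaving out each sample in turn, ranged from 19 to 153 in the LV and 14 to 39 in the RV between genotypes, from 0 to 2 and 0 to 1 between ventricles in WT-PLN and R14del-PLN hearts, and from 0 to 81 averaged. Under the other alternatives, they ranged from 22 to 231, 17 to 88, 0 to 74, 0 to 0 and 2 to 149 in that order. Groups of 3 and unknown depth limit every value.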
